A study of Mus musculus with 468 samples.

Results

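Mki67, the classic marker of dividing cells, was high relative to Adgre1, the gene of the macrophage surface protein F4/80, in 25.2% of the adipose RNA-seq libraries, 57 without and 61 with counts of the Y chromosome gene Ddx3y. They were chosen by the log2 ratio of the levels of these genes, each in CPM (the counts of a gene per 1000000 counts of its library) plus 0.5, as the top 25% of that ratio, taken apart in the libraries without Ddx3y counts (48.5% of all) and with them (51.5%). They are called the high group and are compared with the low group, the bottom 25%, which again holds 57 libraries without and 61 with Ddx3y counts. The comparison asks which genes, and through them which cell types, are higher or lower where Mki67 exceeds what the level of Adgre1 goes with.

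Each library came from the fat of 1 Diversity Outbred mouse, an outbred stock descended from 8 inbred founder strains in which every animal carries its own mixture of founder genomes. All mice ate a diet high in fat and sugar, given as 45 percent fat, from 4 weeks of age, and were harvested at 22 weeks, so that no library came from a control diet. The labels name adipose tissue, the diet and the mouse, and give neither sex nor batch, so the classes by Ddx3y come from the counts. With 1 library per mouse, all p-values below measure the spread between mice.

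Adipose tissue of obese animals recruits monocytes that become macrophages, and some of those macrophages divide in place. Other residents divide too: fibroblast-like progenitors that lay down collagen and give rise to new fat cells, endothelial cells of growing capillaries, and lymphocytes and plasmablasts of the lymphoid clusters that sit in visceral fat. Mature fat cells are held not to divide. In whole tissue, fewer cells of a type and less RNA per cell cannot be told apart.

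Mki67 (chr7:135689784-135716361, GRCm38) and Adgre1 (chr17:57358691-57483527) chose the libraries, so their values are given with no test. In the libraries without Ddx3y counts, Mki67 had a median of 20.7 CPM in the high group (3.48 to 103.9) and 4.79 CPM in the low group (1.92 to 17.03), 4.31 times as high. With Ddx3y counts, the medians were 28.9 CPM (6.71 to 98.4) and 10.5 CPM (2.32 to 82.7), 2.76 times as high. The highest of these levels rests on 9053 Mki67 counts. Adgre1 had nearly the same median in the 2 groups, 37.8 against 38.3 CPM without and 57.98 against 58.7 CPM with Ddx3y counts. Its highest values differed: the highest library reached 144.2 CPM in the high and 730 CPM in the low group without Ddx3y counts, and 246.7 and 645.1 CPM with them. The library at 730 CPM was DO021, and in its class the 75th percentile of Adgre1 was 50.7 CPM in the high and 52.4 CPM in the low group. With Ddx3y counts the mean of Adgre1 was lower in the high group, 70.8 against 115.9 CPM, and its 75th percentile was 86.3 against 146.3 CPM. The log2 ratio of the libraries just inside the high group was -1.34 without and -1.35 with Ddx3y counts, next to -1.34 and -1.36 just outside, and the borders of the low group were as close, -2.46 inside against -2.45 outside and -2.18 against -2.17.

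**Figure D1:**
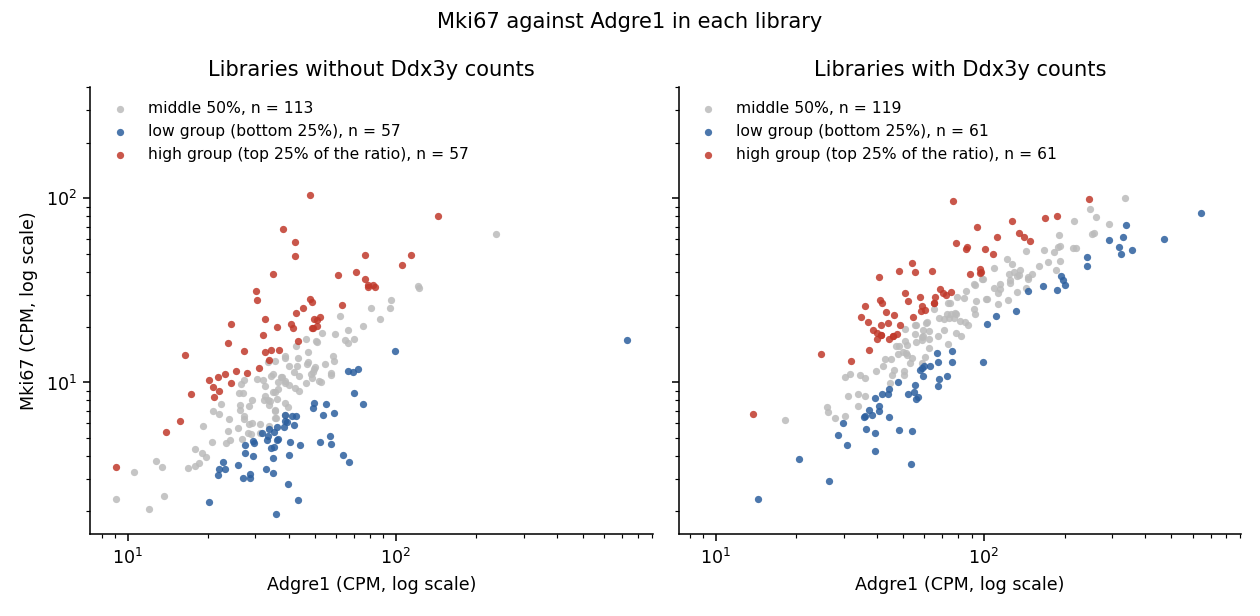
Mki67 against Adgre1 in CPM, both on log axes, with 1 point per library, for libraries without (left) and with (right) Ddx3y counts. The high group (red) lies above the low group (blue) at the same Adgre1 level, with 57 and 61 libraries in each, and the points with the highest Adgre1, up to 730 CPM, are in the low group.

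Depth had a lowest value of 35.3 M counts (M, 1000000), a median of 82.04 M and a highest value of 137.8 M. Of 12 tests of technical measures, 6 in each class, only 1 passed: CT010467.1, a ribosomal RNA fragment, took 2.12% ± 1.12 (SD, n = 57) of the counts in the high and 1.55% ± 0.74 (SD, n = 57) in the low group without Ddx3y counts (permutation test, two-sided, p = 0.0017, adjusted p = 0.0204). Total count, number of genes seen, mitochondrial share, mouse number and library number did not pass in either class. The labels give no batch. Over 5 blocks of mouse numbers the high group took 19.1% to 38.9% of the libraries without and 13.6% to 36.2% of those with Ddx3y counts.

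Some libraries hold transcripts known from other tissues, and several of them lie in the groups. In 16 of all libraries, 50 or more genes were at 20 CPM or higher and over 50 times their median over all libraries. The high group without Ddx3y counts holds 2 of them, the mice DO032 and DO069, which also have the highest ratios of their class, 1.11 and 0.84. Their leading genes are those of ovarian follicles: Cyp11a1, the first enzyme of steroid synthesis, stood at 687.8 and 1083 CPM, and Inha, the alpha subunit of inhibin, at 460.8 and 635.9 CPM, against a median of 0.53 CPM over all libraries. The low group of that class holds 2, DO474 and DO501, which have the plasma protein gene Alb at 1405 and 4558 CPM. With Ddx3y counts the high group holds 6 such libraries and the low group 0. DO180 has the most such genes, among them the sperm genes Tcp11 at 466.99 CPM and Crisp2 at 422.3 CPM. DO283 has the seminal vesicle secretion gene Svs5 at 196634 CPM, DO379 and DO194 have the epididymal gene Rnase10 at 2072 and 157.8 CPM, and DO098 and DO109 have the light chain gene Igkc at 2628 and 1129 CPM. DO109 is mixed, with Akr1b7 at 6165 CPM and Alb at 1175 CPM as well. By a looser rule, a list of markers of gonad, accessory gland, mammary epithelium, pancreas, liver or muscle summing to over 20 CPM and over 20 times its median, another tissue was seen in 95 libraries, 7 against 5 in the high and low groups without and 20 against 18 with Ddx3y counts. Below, the libraries that stand apart are those 16, and values without them, or for muscle, mast cell, macrophage and some fat genes without the 95, stand beside results that they change. Where libraries were left out, all of that kind were dropped and the high and low groups were drawn anew from the rest. Without the 16, each group held 56 libraries without and 58 with Ddx3y counts, and without the 95 it held 52 and 42. No library of the groups lacked both Ddx3y and Xist, the RNA that silences 1 X chromosome. The fat genes were present throughout: Fabp4, the fatty acid carrier of fat cells, was between 4088 and 14694 CPM in every library of the 4 groups.

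**Figure D2:**
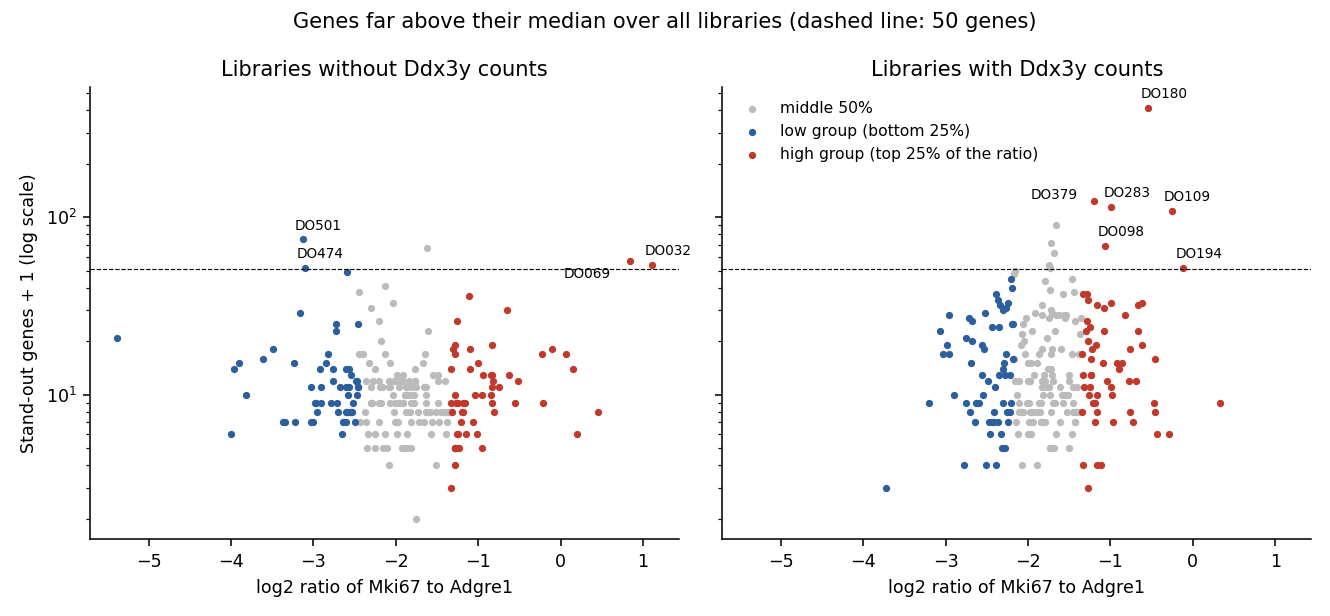
Number of genes at 20 CPM or higher and over 50 times their median, plus 1 and on a log axis, against the log2 ratio of Mki67 to Adgre1, 1 point per library. Of the libraries above the line at 50 genes, DO032 and DO069 have the highest ratios without Ddx3y counts, and of those with Ddx3y counts 6 are in the high group, 5 in the middle and 0 in the low group.

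The high and low groups were compared gene by gene with edgeR's quasi-likelihood test, and a gene counted as higher or lower at an adjusted p under 0.05 (Benjamini-Hochberg). Without Ddx3y counts, 2178 genes (11.9% of 18369) were higher and 1205 (6.56%) lower in the high group. With Ddx3y counts, 1571 genes (8.55% of 18378) were higher and 1222 (6.65%) lower. Without the libraries that stand apart, these were 10.5% and 6.35% without and 7.67% and 10.3% with Ddx3y counts, so that with Ddx3y counts the share of higher among called genes went from 56.2% to 42.7%. The groups of the classes share no mouse, and 3.42% of genes were higher and 2.29% lower in both, while 29 moved in opposite directions. The 1048 genes of the same direction are 30.98% of the calls without and 37.5% of the calls with Ddx3y counts. Across genes, which are not independent replicates, the log2 fold changes of the classes had a Pearson r of 0.28 and a Spearman rho of 0.41. The difference between the classes itself passed for 3.29% of genes, a share that went to 0.0054% (1 gene) with limma on the authors' variance-stabilised values, 1.26% with Adgre1 as a covariate and 0.979% without the libraries that stand apart. The median log2 fold change over all genes was 0.0016 without and 0.0079 with Ddx3y counts, and the lists below are read against these. Counts of called genes in the lists are likewise read against the shares of all genes called higher or lower.

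The calls depend on how the libraries are ranked. Ranked instead by the mean log2 level of the mitosis list minus that of the macrophage list, here the list ratio, 32.5% of genes were called without and 40.6% with Ddx3y counts, and the calls, in either direction, shared with the ranking by Mki67 and Adgre1 were 1026 of 3383 and 1285 of 2793. Values under the list ratio stand beside the called genes whose sign it turned, as far as it was computed for single genes.

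**Figure D3:**
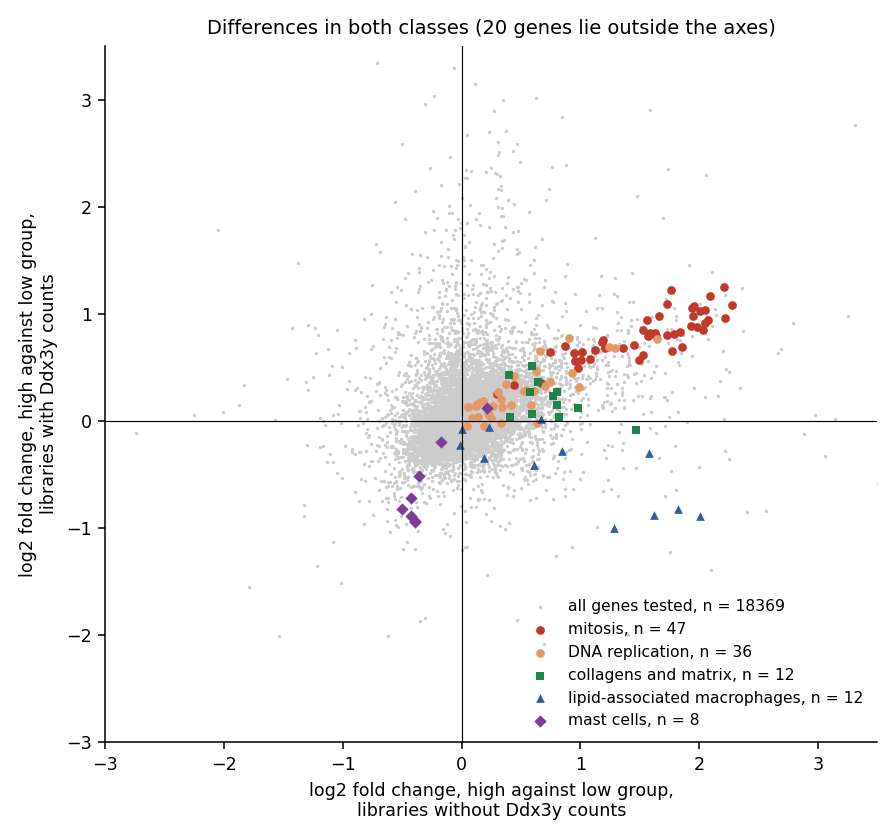
Log2 fold change of the high against the low group for 18369 genes, libraries without Ddx3y counts on the horizontal and with them on the vertical axis, with 20 genes outside the axes. The 47 mitosis genes (red) lie at upper right, collagens (green) to the right, 11 of the 12 lipid-associated macrophage genes (blue triangles) below 0 on the vertical axis, and 7 of the 8 mast cell genes (purple) at lower left.

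The genes of mitosis followed Mki67, which is close to how the libraries were chosen and is given as a description. All 47 mitosis genes were higher in both classes, with a median log2 fold change of 1.63 without and 0.80 with Ddx3y counts. Cenpf, a kinetochore protein of late cycle (chr1:189640606-189688086), had a median of 4.46 CPM in the high group (0.62 to 30.7) and 0.89 CPM in the low group (0.29 to 5.72) without Ddx3y counts, a log2 fold change of 2.21 ± 0.16 (SE). With Ddx3y counts the medians were 5.09 CPM (0.91 to 61.98) and 1.57 CPM (0.42 to 11.5), a log2 fold change of 1.25 ± 0.20. The groups overlap in both classes. Top2a, the topoisomerase that untangles chromosomes, had log2 fold changes of 1.93 ± 0.15 and 0.89 ± 0.19, and -0.02 with Ddx3y counts by the list ratio. The smallest mitosis rises belonged to Anln, a cytokinesis scaffold that is also the most abundant of the list, at 0.30 ± 0.10 and 0.25 ± 0.09. Without the libraries that stand apart all 47 still rose in both classes, with medians of 1.44 and 0.68. Summed over the list, mitosis transcripts ran from 53.6 to 867 CPM (median 151.03) in the high and from 35.8 to 170 CPM (median 65.3) in the low group without Ddx3y counts, and from 54.9 to 1041 CPM (median 190.7) and 53.4 to 489.04 CPM (median 102.4) with them.

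Kif2c and Kif18b are kinesins of mitosis that shorten microtubules. Among mitosis genes chosen for holding TTTGAA or its reverse in the promoter, they and Cenpf rose most by the smaller change of the classes. The log2 fold changes of Kif2c and Kif18b were 1.76 ± 0.16 and 2.09 ± 0.17 without and 1.22 ± 0.26 and 1.17 ± 0.20 with Ddx3y counts. Late cycle genes are known to carry the CHR element TTTGAA near the start and CCAAT boxes upstream of it, so the promoters of these 3 genes are shown, from RefSeq on GRCm38.p6, 250 bases before to 50 after the start on the minus strand, with the letters TTTGAA (or its reverse TTCAAA) and CCAAT in capitals. They lie at chr1:189688037-189688336, chr4:117178723-117179022 and chr11:102925075-102925374. Because TTTGAA or TTCAAA in this window was a condition for choosing the 3 genes, its presence in them is no result.
Cenpf: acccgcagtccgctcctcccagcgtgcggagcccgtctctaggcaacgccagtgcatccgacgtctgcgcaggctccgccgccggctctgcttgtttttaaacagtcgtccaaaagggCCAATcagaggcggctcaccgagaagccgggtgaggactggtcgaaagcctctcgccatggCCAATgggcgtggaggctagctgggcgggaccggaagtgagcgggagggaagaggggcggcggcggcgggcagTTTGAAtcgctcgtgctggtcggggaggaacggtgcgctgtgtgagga
Kif2c: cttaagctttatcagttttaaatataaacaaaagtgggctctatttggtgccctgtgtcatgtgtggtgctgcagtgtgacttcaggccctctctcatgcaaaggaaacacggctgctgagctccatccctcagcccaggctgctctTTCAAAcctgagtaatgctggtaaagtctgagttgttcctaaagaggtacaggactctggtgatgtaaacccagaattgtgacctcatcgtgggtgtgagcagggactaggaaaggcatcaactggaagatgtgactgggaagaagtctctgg
Kif18b: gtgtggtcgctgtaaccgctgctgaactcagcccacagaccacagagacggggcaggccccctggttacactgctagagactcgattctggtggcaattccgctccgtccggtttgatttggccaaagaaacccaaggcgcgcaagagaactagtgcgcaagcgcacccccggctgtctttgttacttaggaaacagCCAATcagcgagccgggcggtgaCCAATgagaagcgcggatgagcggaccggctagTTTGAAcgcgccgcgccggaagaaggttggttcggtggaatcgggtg

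Counted from the first transcribed base, TTTGAA begins at position 2 in Cenpf and 3 in Kif18b, and their CCAAT boxes begin at -132 and -71 and at -53 and -30. The Kif2c entry starts inside the gene as the count table's annotation draws it (chr4:117159639-117182639) and holds TTCAAA at -103 and no CCAAT. On either strand, TTTGAA was found in 75% of the 40 mitosis genes with a promoter entry and CCAAT in 70%, against 14.96% and 42.1% of the 12669 tested genes with an entry. Of the 30 DNA replication genes with an entry, 13.3% held TTTGAA and 63.3% CCAAT. These matches describe letters in a window and are no evidence of binding.

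Genes of DNA replication, the step before mitosis, moved the same way by less. Of 36, 31 rose without and 19 with Ddx3y counts, 18 of them in both classes, and none fell, with median log2 fold changes of 0.36 and 0.18. Clspn, which relays stalled forks to the checkpoint, rose by 1.64 ± 0.16 and 0.76 ± 0.20, Uhrf1, which copies DNA methylation to the new strand, by 1.29 ± 0.14 and 0.68 ± 0.16, and Rrm2, the regulated subunit of ribonucleotide reductase, by 1.24 and 0.69. By the list ratio Clspn and Uhrf1 were at -0.23 and -0.15 with Ddx3y counts and Pcna at -0.02 without. Pcna, the sliding clamp and the most abundant gene of the list, had medians of 35.7 against 32.9 CPM without Ddx3y counts, a rise of 0.19 ± 0.04 (adjusted p = 6.82e-05), and 39.8 against 38.2 CPM with them, where the fitted change was -0.04 ± 0.06 (adjusted p = 0.684). The difference between the classes passed for 28 of the 47 mitosis and 4 of the 36 replication genes, all smaller with Ddx3y counts. The groups were cut within each class, and Mki67 itself differed less with Ddx3y counts, by a mean of 1.22 against 1.94 on the log2 scale. A smaller rise of genes that follow Mki67 is thus not free of the rule. With Adgre1 as a covariate the mitosis medians came closer, 1.63 and 1.30, and for Cenpf the difference between classes no longer passed (-0.39, adjusted p = 0.381). List members named here and below beyond the 2 most abundant of each list were chosen after their values were seen.

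Genes of G1 control moved in both directions. Of 18 G1 cyclins and inhibitors of cyclin-dependent kinases, 4 rose and 2 fell without and 2 rose and 4 fell with Ddx3y counts, and the medians were 0.03 and -0.02, where 18.4% of all genes were called without and 15.2% with Ddx3y counts. Ccnd1, the cyclin that mitogens induce, rose in both classes, from 14.7 to 20.2 CPM in median (0.58 ± 0.13, adjusted p = 3.2e-04) and from 37.1 to 45.8 CPM (0.41 ± 0.11, adjusted p = 0.00582). Cdkn1b, the inhibitor p27 of resting cells, fell by 0.15 on the log2 scale in each. Ccnd2, the most abundant cyclin, had log2 fold changes of 0.04 and 0.14 and did not pass. Of 16 ribosome biogenesis genes none rose in either class and 1 fell, without Ddx3y counts.

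Macrophage genes gave calls of opposite direction in the classes, few of them with Ddx3y counts. Of 18 macrophage genes, 4 rose without Ddx3y counts and 2 fell with them, with median log2 fold changes of 0.18 and -0.29. Of all genes, 11.9% rose without and 6.65% fell with Ddx3y counts. By median CPM 17 and 13 of the 18 were higher in the high group, with median log2 ratios of 0.18 and 0.13, the second against the sign of the fitted changes. Of 12 genes of lipid-associated macrophages, the TREM2-dependent cells around dying fat cells, 7 rose without Ddx3y counts (median 0.75), and none rose and 2 fell with them (median -0.33). The falls with Ddx3y counts depend on the setting. Without the other-tissue libraries 1 of the 18 and 0 of the 12 fell in that class. With limma on the variance-stabilised values 1 of each list fell, and the lipid-associated median was 0.02. The difference between the classes passed for 3 of the 18 and 7 of the 12. Gpnmb, the abundant glycoprotein of these cells (chr6:49036546-49070929), had medians and fitted changes of opposite sign in both classes. Without Ddx3y counts its median was lower in the high group, 15.3 CPM (2.52 to 660) against 18.9 CPM (4.88 to 124.6), while the fitted log2 fold change, which follows the mean, was 1.28 ± 0.31 (adjusted p = 0.00176). With Ddx3y counts its median was higher, 98.1 CPM (10.7 to 1316) against 45.4 CPM (12.8 to 2444), while the fitted change was -0.997 ± 0.34 (adjusted p = 0.0333). The highest library was thus in the high group without and in the low group with Ddx3y counts. On the authors' variance-stabilised log2 values, limma gave 0.11 (adjusted p = 0.81) and -0.16 (adjusted p = 0.795). Taken from median CPM, the list was higher in the high group in both classes, for 11 and 10 of the 12 genes, with median log2 ratios of 0.34 and 0.48.

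With Ddx3y counts the upper tail of Adgre1 lies in the low group. Without them its 75th percentiles were close, 50.7 CPM in the high and 52.4 CPM in the low group, with DO021 of the low group at 730 CPM. Adgre1 is also the denominator of the ratio, so macrophage genes are not free of the rule. Nor is a fit with Adgre1 as a covariate, which at a given Adgre1 level compares libraries by Mki67. Mki67 and Adgre1 had a Spearman rho of 0.59 without and 0.83 with Ddx3y counts. Values from that fit, here and elsewhere, are therefore given as a description. With Adgre1 as a covariate, more genes passed, 15.6% higher and 12.4% lower without and 16.3% higher and 12.3% lower with Ddx3y counts. In that fit 8 of the 12 lipid-associated genes were higher in each class, with medians of 0.50 and 0.44, and 9 of the 18 macrophage genes were higher without and 10 higher and 2 lower with Ddx3y counts. Itgax, the integrin CD11c, went from -0.88 ± 0.33 (adjusted p = 0.0582) with Ddx3y counts to 0.77 (adjusted p = 2.58e-06) in the fit with the covariate, and was 0.91 (adjusted p = 0.00192) without Ddx3y counts. Gpnmb was 0.28 (adjusted p = 0.375) and 0.40 (adjusted p = 0.0434) in it. With the macrophage list in place of Adgre1 as the covariate, 1 of the 12 lipid-associated genes was higher without Ddx3y counts. With them 3 were higher and 1 lower, and the medians were 0.24 and 0.26. The 18 macrophage genes, which make up that covariate, gave 2 higher and 1 lower without and 5 higher and 3 lower with Ddx3y counts. With the list ratio, whose denominator is the macrophage list, Gpnmb was at -1.37 and Itgax at -1.56 without Ddx3y counts. Resident macrophages, marked by Lyve1, Timd4 and Mrc1, had 1 of 11 genes higher in each class and medians of 0.06 and 0.09. Of 10 monocyte genes 4 rose without and none with Ddx3y counts (medians 0.37 and 0.26), among them Ccr2, the receptor that brings monocytes into tissue, at 0.56, with 0.38 in the other class, which did not pass. Among all genes 11.9% rose without and 8.55% with Ddx3y counts.

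**Figure D4:**
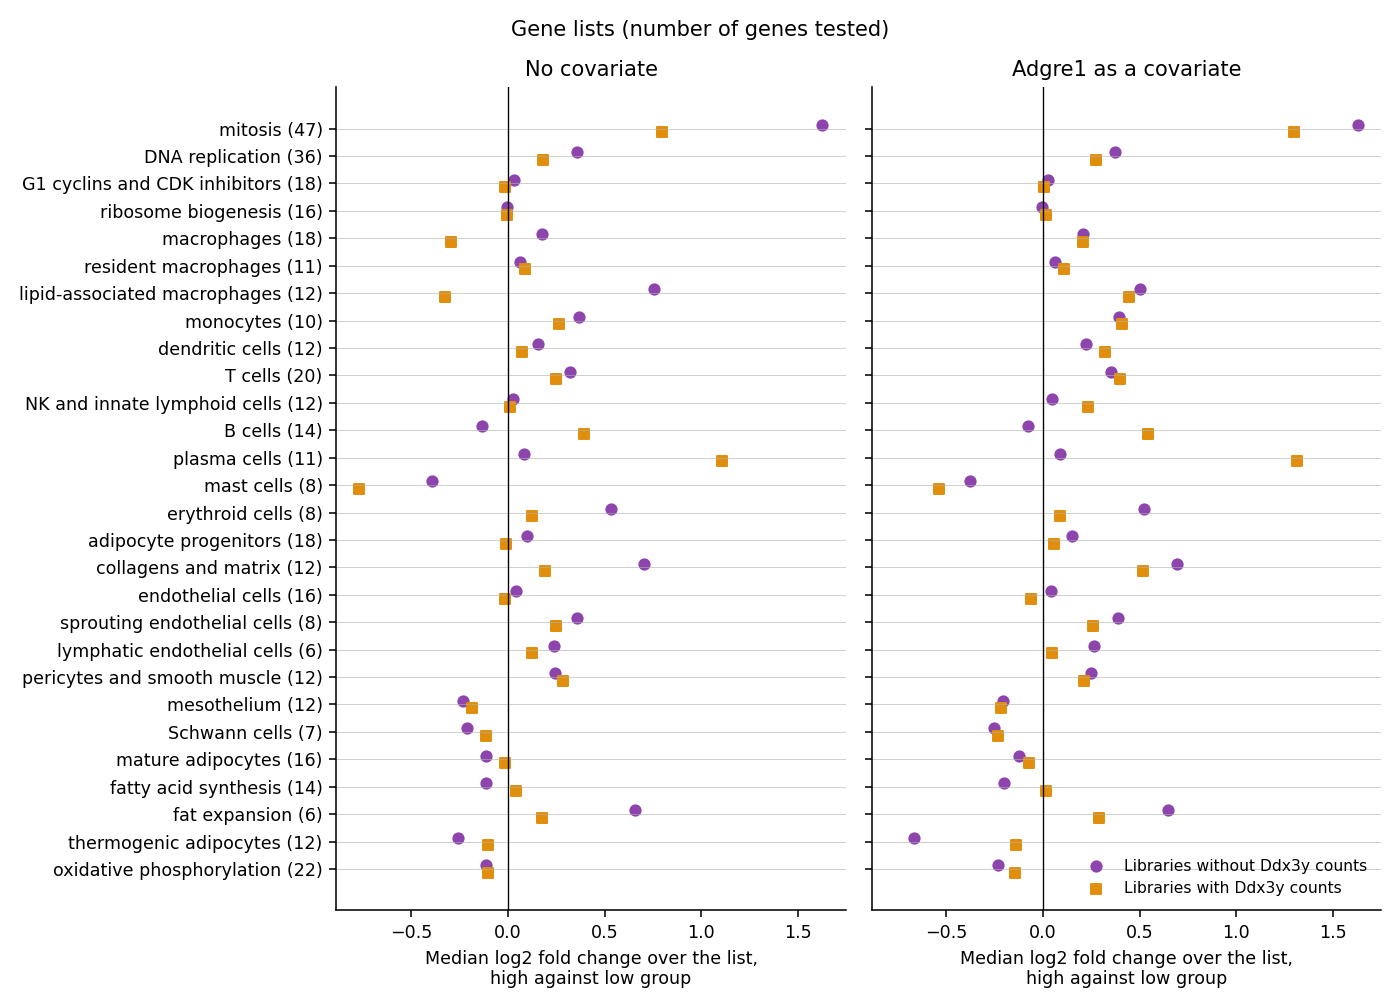
Median log2 fold change of 28 gene lists, high against low group, with no covariate (left) and with Adgre1 as a covariate (right), circles for libraries without and squares for libraries with Ddx3y counts. Mitosis lies at 1.63 and 0.80 on the left panel, the plasma cell square lies farther right than the mitosis square, at 1.11, and lipid-associated macrophages move from 0.75 and -0.33 to 0.50 and 0.44 between the panels.

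All 12 collagen and matrix genes of the list rose without Ddx3y counts, with a median of 0.71, and 12 of 12 also rose without the libraries that stand apart. With Ddx3y counts 4 rose (median 0.19), namely Sparc, Col15a1, Fbn1 and Col5a1, while all 12 had a higher median CPM in the high group and 12 rose with Adgre1 as a covariate (median 0.52). Sparc, a collagen-binding secreted protein and the most abundant of the list, had a median of 2380 CPM (664.7 to 4853) against 1464 CPM (603.9 to 2831) without Ddx3y counts, a rise of 0.64 ± 0.10 (adjusted p = 7.94e-08). With Ddx3y counts it was 3477 CPM (602.003 to 5031) against 2353 CPM (963 to 5469), a rise of 0.36 ± 0.10 (adjusted p = 0.00485), and -0.06 with the list ratio. Col3a1, fibrillar collagen III, rose by 0.80 ± 0.12 (adjusted p = 1.04e-07) without Ddx3y counts, from 1418 to 2391 CPM in median, and its change of 0.15 ± 0.14 with them did not pass, at medians of 1468 and 2079 CPM, and with the list ratio it fell by 0.54 (adjusted p = 3.16e-04) in that class. The difference between the classes passed for 6 of the 12, Col3a1 (-0.65 ± 0.19, adjusted p = 0.0258) and Col1a1 (-0.87 ± 0.22, adjusted p = 0.00824) among them, and for neither of these with Adgre1 as a covariate (adjusted p = 0.28 and 0.154).

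Markers of the cells that make this matrix moved less evenly. Of 18 adipocyte progenitor genes, 6 rose and 2 fell without and 2 rose and 2 fell with Ddx3y counts, with medians of 0.10 and -0.01. Among all genes, 11.9% rose and 6.56% fell without and 8.55% rose and 6.65% fell with Ddx3y counts. The progenitor calls with Ddx3y counts are thus near the share of all genes. Dcn, decorin, an abundant proteoglycan of fat fibroblasts, fell in both classes, from a median of 1043 to 908 CPM (-0.25 ± 0.07, adjusted p = 0.0109) and from 937 to 776 CPM (-0.30 ± 0.05, adjusted p = 1.93e-05). Pdgfra, the receptor that marks the progenitors, stood at -0.07 without Ddx3y counts, where it did not pass, and fell by 0.33 with them. Cd55, a complement inhibitor of early progenitors, was the member that rose in both, by 0.22 and 0.28.

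Genes of sprouting vessels gave more calls than general endothelial genes. The shares of all genes were 11.9% higher and 6.56% lower without and 8.55% higher and 6.65% lower with Ddx3y counts. Of 16 general endothelial genes, 1 rose without and 1 fell with Ddx3y counts, and the medians were 0.04 and -0.01. Of 8 genes of sprouting and tip cells, 5 rose without and 2 with Ddx3y counts, with medians of 0.36 and 0.25. Apln, the tip cell ligand apelin, rose in both, from 4.92 to 7.17 CPM in median (0.60 ± 0.15, adjusted p = 0.00264) and from 9.13 to 14.7 CPM (0.66 ± 0.12, adjusted p = 8.01e-05). Nid2, a basement membrane linker, rose by 0.51 ± 0.12 and 0.38 ± 0.08. Neither gene lost its call without the libraries that stand apart, and with the list ratio Apln was at -0.10 without Ddx3y counts (adjusted p = 0.636). Of 12 genes of pericytes and smooth muscle, 8 rose without and 2 with Ddx3y counts (medians 0.24 and 0.28), and Mcam, a mural cell adhesion molecule, was the only one in both, and with the list ratio was at -0.09 without Ddx3y counts. With blocks of mouse and library numbers in the fit, 2 of the 12 rose without Ddx3y counts. Cnn1, smooth muscle calponin, rose by 1.86 ± 0.43 without Ddx3y counts (adjusted p = 8.0e-04), at medians of 5.25 against 5.73 CPM, and its highest library reached 936 CPM in the high and 242.3 CPM in the low group. No gene of 6 for lymphatic endothelium passed in either class.

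Some genes of fat tissue growth rose with Mki67, while genes of the mature fat cell gave calls in both directions. Mest, an imprinted gene whose level tracks the expansion of fat (chr6:30723547-30748465, overlapping Copg2), had a median of 48.98 CPM (3.65 to 1322) against 40.8 CPM (2.92 to 753) without Ddx3y counts, a rise of 1.13 ± 0.39 (adjusted p = 0.0294). With them it was 227.4 CPM (14.4 to 1178) against 117.9 CPM (9.47 to 809), a rise of 0.87 ± 0.27 (adjusted p = 0.0168). The spread of Mest was wide in every group, and the high and low groups overlap. Npr3, the clearance receptor for natriuretic peptides, rose from 360 to 750 CPM in median (0.65 ± 0.19, adjusted p = 0.0105) and from 1183 to 1721 CPM (0.51 ± 0.11, adjusted p = 7.3e-04). Of the 6 genes of this list 3 rose without and 2 with Ddx3y counts. Lep, the hormone leptin, whose transcript grows with fat cell size, is a member of the mature adipocyte list and not of this one. It went from 335.4 to 817 CPM in median without Ddx3y counts (1.22 ± 0.27, adjusted p = 5.7e-04), and from 1190 to 2257 CPM with them, where 0.52 ± 0.20 did not pass (adjusted p = 0.0653) until the libraries that stand apart were left out (0.62, adjusted p = 0.0178). These rises depend on the ranking: with the list ratio, the changes without Ddx3y counts were -0.55 for Mest (adjusted p = 0.289), -0.27 for Npr3 (adjusted p = 0.291) and -0.38 for Lep (adjusted p = 0.3), and Mest was at 0.08 with them.

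Cfd, the fat cell protease adipsin (chr10:79890853-79892655), was the mature adipocyte gene that fell in both classes. Its median was 2121 CPM (199.1 to 7034) in the high and 3424 CPM (1543 to 7840) in the low group without Ddx3y counts, a log2 fold change of -0.74 ± 0.17 (adjusted p = 7.7e-04). With Ddx3y counts it was 785 CPM (134.98 to 2809) against 1446 CPM (40.9 to 6467), a log2 fold change of -0.88 ± 0.25 (adjusted p = 0.00836). No library of the low group without Ddx3y counts was below 1543 CPM, whereas the low group with them reached from 40.9 CPM to above every library of the high group. With the list ratio Cfd was at -0.11 (adjusted p = 0.633) and 0.45 (adjusted p = 0.159), and without the other-tissue libraries it lost the second call (-0.85, adjusted p = 0.0607). Of 16 mature adipocyte genes, 1 rose (Lep) and 3 fell without and 1 rose and 1 fell with Ddx3y counts (medians -0.11 and -0.02), and Fabp4 did not pass in either. Among all genes, 11.9% rose and 6.56% fell without and 8.55% rose and 6.65% fell with Ddx3y counts. With Ddx3y counts the mature adipocyte genes were thus called no more often than all genes. Of 14 genes of fatty acid synthesis none passed without Ddx3y counts, and 1 rose (Scd2, 0.62) and 1 fell (Acacb, -0.44) with them. Thermogenic genes such as Ucp1, the uncoupling protein, gave no call in 12 in either class (medians -0.26 and -0.10). Of 22 genes of oxidative phosphorylation 1 fell, with Ddx3y counts, at medians of -0.11 and -0.10. With Adgre1 as a covariate 17 and 16 of these 22 fell, by medians of -0.23 and -0.15, and 7 thermogenic genes fell without and 1 with Ddx3y counts. With the macrophage list as a covariate 0 and 10 of the 22 fell (medians -0.07 and -0.11), and 1 thermogenic gene fell in each class. By the list ratio the sign turned without Ddx3y counts for Atp5b (0.52, adjusted p = 8.69e-05), Atp5a1 (0.51), Ucp1 (1.17, adjusted p = 0.0243) and Cidea (1.21). Atp5b and Atp5a1 were at 0.20 and 0.16 by it with Ddx3y counts.

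**Figure D5:**
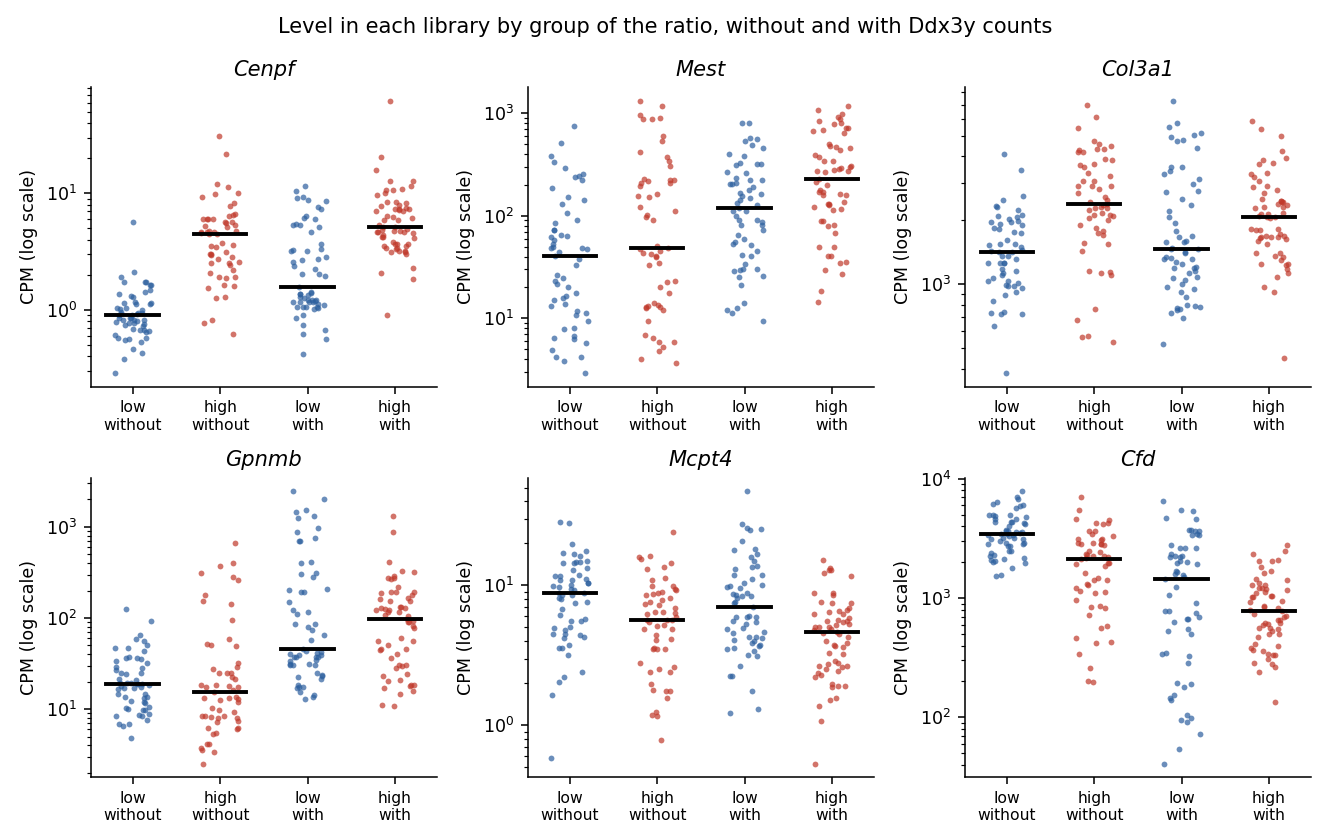
CPM in each library on a log axis for 6 genes, low (blue) and high (red) group, without and with Ddx3y counts, with a black line at the median. Cenpf rises in both classes, Cfd and Mcpt4 are lower in both, and for Gpnmb the highest points, up to 2444 CPM, are in the low group with Ddx3y counts although the median is higher in the high group.

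Of 8 mast cell genes 2 fell without (median -0.39) and 5 with Ddx3y counts (median -0.77), and none rose. Among all genes 6.56% fell without and 6.65% with Ddx3y counts. Mcpt4, a chymase of connective tissue mast cells, had a median of 5.70 CPM (0.79 to 23.97) against 8.80 CPM (0.58 to 28.4) without Ddx3y counts, a fall of 0.50 ± 0.18 on the log2 scale (adjusted p = 0.0388). With them it was 4.67 CPM (0.53 to 15.2) against 6.95 CPM (1.22 to 46.9), a fall of 0.82 ± 0.18 (adjusted p = 5.7e-04). Cma1, the other chymase, fell by 0.43 ± 0.15 (adjusted p = 0.0342) and by 0.88 ± 0.18 (adjusted p = 1.9e-04). Without the libraries that stand apart the calls of Mcpt4 (-0.45, adjusted p = 0.0673) and Cma1 (-0.39, adjusted p = 0.0618) were lost without Ddx3y counts, with a list median of -0.36, and 5 of 8 genes fell with them (median -0.74). Without the other-tissue libraries 0 and 4 fell, with medians of -0.34 and -0.67. Kit, the receptor that mast cells share with other cells, did not pass in either class (0.21 and 0.12).

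T and B cell genes gave few calls. Of all genes, 11.9% rose and 6.56% fell without and 8.55% rose and 6.65% fell with Ddx3y counts. The lists of this paragraph are read against these shares. Of 20 T cell genes 2 rose without Ddx3y counts, Trac (0.74 ± 0.20, adjusted p = 0.00433), the constant chain of the T cell receptor, and Cd6, and none passed with them, with medians of 0.32 and 0.25. Of 14 B cell genes none passed without (median -0.13) and 1, Ighm, the IgM heavy chain, rose with Ddx3y counts (list median 0.39), at 218.7 CPM (22.9 to 2717) against 147.8 CPM (12.8 to 493.3) in median and 0.78 ± 0.21 (adjusted p = 0.00524), and -0.18 with the list ratio. Of 12 genes of natural killer and innate lymphoid cells 2 rose with Ddx3y counts, 0 after the libraries that stand apart were left out, and none passed without. Of 12 dendritic cell genes 3 rose and 1 fell without and 1 rose and 1 fell with Ddx3y counts, and Fscn1, the actin bundler of mature dendritic cells, rose in both (0.53 ± 0.09 and 0.27 ± 0.07). Of 6 neutrophil genes S100a8 rose without Ddx3y counts (1.60 ± 0.28, adjusted p = 7.88e-06), at medians of 0.96 and 0.52 CPM, and was 0.08 ± 0.25 with them. Of 6 germinal centre genes Mybl1, a transcription factor of the Myb family, rose in both, by 0.24 and 0.41.

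Some plasma cell and erythroid genes were very high in a few libraries of the high groups. Of 11 plasma cell genes 2 rose without and 6 with Ddx3y counts, where the median was 1.11, and without the libraries that stand apart 3 rose at a median of 0.35. The median log2 ratio of median CPM was 0.05. Igkc, the kappa light chain, had a lower median in the high group with Ddx3y counts, 29.8 CPM (1.63 to 2628) against 38.6 CPM (1.19 to 193.97), but a fitted change of 1.496 ± 0.36 (adjusted p = 0.00178), which became 0.73 (adjusted p = 0.0966) without those libraries. The highest were DO098 at 2628 CPM, DO109 at 1129 CPM and DO414 at 877 CPM, all in the high group. Immunoglobulin segments resemble each other, so reads could be split between them. Of 8 erythroid genes 5 rose without and 2 with Ddx3y counts, and 3 and 0 without the libraries that stand apart. Summed over the list, erythroid transcripts reached 6687 CPM in the high and 1884 CPM in the low group without Ddx3y counts. With them both groups held high libraries, up to 6796 and 5753 CPM, at medians of 1100 and 1087 CPM. Slc4a1, the anion exchanger of red cells, rose by 1.81 ± 0.41 (adjusted p = 6.4e-04) and 0.94 ± 0.34 (adjusted p = 0.0407), with medians of 0.68 against 0.31 CPM and 0.63 against 0.56 CPM and with 4 libraries of the high group far above, DO250 at 44.1 CPM, DO510 at 36.1 CPM, DO309 at 32.4 CPM and DO080 at 12.3 CPM, and the second call was lost (adjusted p = 0.0822) without the libraries that stand apart. By the list ratio it was at -0.14 without Ddx3y counts. Hba-a2, a haemoglobin gene with a near copy in Hba-a1, rose by 0.60 ± 0.19 without Ddx3y counts (adjusted p = 0.0166) and lost its call without the libraries that stand apart (adjusted p = 0.0805), and with the list ratio was at -0.44.

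Some genes of the lining and the nerves of the fat pad fell without Ddx3y counts, where 6.56% of all genes fell. Of 12 mesothelial genes 4 fell in that class (median -0.23), among them Upk3b, a uroplakin of the fat pad's lining, from 106.8 to 86.99 CPM in median (-0.41 ± 0.11, adjusted p = 0.00317), and with them 1 rose and 1 fell (median -0.18). Of 7 Schwann cell genes 2 fell without (median -0.21) and none with Ddx3y counts (median -0.11). Of 6 lymph node stroma genes 1 rose and 1 fell without and none passed with Ddx3y counts.

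Genes of neighbouring organs were high in single libraries. Of 6 ovary and oviduct genes 5 rose without Ddx3y counts (median 1.01) and 1 without the libraries that stand apart. Cyp11a1 had medians of 0.21 CPM in the high and 0.33 CPM in the low group, and a fitted change of 5.94 ± 0.71 (adjusted p = 3.26e-11) that was 0.12 (adjusted p = 0.784) without the libraries that stand apart, DO032 and DO069 among them. With Ddx3y counts Adam28, a metalloprotease of the epididymis, was at 1309 CPM in DO379 and 213.01 CPM in DO194 against medians of 0.20 and 0.15 CPM, and its change of 6.66 ± 0.73 went to 0.71 (adjusted p = 0.0502) without the libraries that stand apart. Mael, a germ cell gene, was at 239.3 CPM in its highest library and went from 2.52 to -0.11. Of 4 mammary epithelium genes 1 fell without and 2 rose with Ddx3y counts, and none of the 4 passed with Ddx3y counts after those libraries were left out. No liver gene of 7 passed in either class. Of 6 skeletal muscle genes 3 fell without (median -1.15) and 1 with Ddx3y counts (median -0.21), and without the other-tissue libraries of the looser rule 1 (median -0.35) and 3 (median -0.63). Atp2a1, the calcium pump of fast muscle and no member of that list, was lower in both, by 1.79 ± 0.61 (adjusted p = 0.0267) and 1.55 ± 0.34 (adjusted p = 5.5e-04), at medians of 0.35 against 0.50 CPM and 0.35 against 0.28 CPM. Without the other-tissue libraries it lost the first call (-0.79, adjusted p = 0.399). Its sign with Ddx3y counts turned to 0.04 with limma, 0.59 in the outer 10% of libraries, 0.23 with 2 CPM added in the ratio and 1.57 (adjusted p = 4.83e-05) with the list ratio. Its highest libraries in the low group without Ddx3y counts were DO326 at 271.9 CPM and DO487 at 231.6 CPM. The part of other tissue in the results on Mki67 itself was not tested.

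Among genes called in both classes with a mean of at least 1 CPM, predicted genes, pseudogenes, Y chromosome genes and segments of antigen receptors left out, 7 of the 12 largest rises belong to mitosis: Cenpf, Kif2c, Kif18b, Spag5, Ttk, Pbk and Nuf2. Spag5, a spindle protein outside the list of mitosis genes, rose by 1.73 ± 0.15 and 1.13 ± 0.20. The other 5 are Slc38a5, Col6a4, Gcnt4, Acoxl and Ddit4l. Slc38a5, an amino acid transporter (chrX:8271133-8280179), rose by 3.31 ± 0.53 and 2.76 ± 0.39 and by 1.24 (adjusted p = 0.0251) and 0.57 (adjusted p = 0.0344) without the libraries that stand apart, of which DO379 held 734 CPM. Col6a4, a collagen VI chain, rose by 1.74 ± 0.55 and 2.35 ± 0.40, and with Ddx3y counts the change was -0.17 (adjusted p = 0.603) without those libraries. Gcnt4, a glycan branching enzyme, went from 1.90 to 0.46 (adjusted p = 0.279) and Ddit4l, an inhibitor of mTOR signalling, from 1.18 to 0.37 (adjusted p = 0.328) with Ddx3y counts when they were left out, and Ddit4l from 1.15 to 0.70 (adjusted p = 0.067) without. Acoxl, related to peroxisomal acyl-CoA oxidases, was the one of these 5 that moved little, from 1.31 ± 0.21 to 1.38 and from 1.16 ± 0.24 to 1.29, and its medians were 1.16 against 0.58 CPM and 1.55 against 0.59 CPM.

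The 12 largest falls in both classes, with the same genes left out, were Cfd and the 11 that follow. Gpx3, the plasma glutathione peroxidase, fell by 0.58 ± 0.17 (adjusted p = 0.00887) and 0.61 ± 0.11 (adjusted p = 3.46e-05), from medians of 424.8 to 244.4 CPM and 346.5 to 250 CPM, and with the list ratio it was at 0.12 without Ddx3y counts. Agt, angiotensinogen, fell by 0.60 ± 0.19 and 0.57 ± 0.17, and Ces1f, a carboxylesterase, by 0.63 ± 0.14 and 0.62 ± 0.20. By the list ratio they were at 0.22 and 0.47 with Ddx3y counts. Fam13a (chr6:58932090-59024549), a gene tied to fat distribution, fell by 0.56 ± 0.19 and 0.93 ± 0.24, and BB365896 fell with it. Neither fell by the list ratio, at 0.15 and 0.36 for Fam13a and 0.06 and 0.85 for BB365896. BB365896 lies within Fam13a on the other strand, and whether counting used strand is not given in the sources used here, so their reads may not be separate. The rest were Sstr4, Slc43a1, Fcamr and Eif4ebp3, between 0.56 and 0.96 lower, and the muscle genes Atp2a1 and Tnni2. Slc43a1, Fcamr, Eif4ebp3 and Tnni2 were at 0.34, 0.62, 0.16 and 0.25 by the list ratio with Ddx3y counts. Cyp2e1, a cytochrome of the fat cell chosen after its values were seen, fell by 0.56 ± 0.19 and 0.97 ± 0.29, and lost the first call (adjusted p = 0.0685) without the libraries that stand apart, and with the list ratio was at 0.05 and 0.68. Tuba1a, chosen in the same way, the alpha tubulin that growing and dividing cells make, rose from 204.7 to 437.8 CPM in median (0.97 ± 0.19, adjusted p = 8.19e-05) and from 638.8 to 1136 CPM (0.76 ± 0.16, adjusted p = 4.5e-04), and with the list ratio was at -0.05 without Ddx3y counts.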

How the data were processed

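Poly(A) RNA-seq was analysed in 468 adipose libraries of Diversity Outbred mice. The authors aligned paired reads as single ends to a transcriptome of the 8 founder strains on GRCm38 and estimated expression with EMASE through GBRS, and deposited expected counts per gene, with transcripts of low reads removed. They also deposited DESeq2 variance-stabilised values on a log2 scale. Neither the EMASE version nor whether strand was used in counting is stated in the sources used here.

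Expected counts were rounded to whole numbers. CPM is the count over the library's total. A gene entered the fits (18378 genes) if 50% or more of all libraries held 10 or more of its counts. Within each Ddx3y class the high group was compared with the low group by edgeR 4.0.16 (quasi-likelihood, TMM, Benjamini-Hochberg over all genes, R 4.3.3), and classes by an interaction term. Fold changes are log2, with SE, and compare means. Technical measures used permutation tests (100000 resamples, two-sided). The scripts were tested on simulated data. Alternatives included DESeq2 1.42.0 and limma 3.58.1 on the deposited log2 values.

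Named genes were the 12 largest rises and falls called in both classes by the smaller change, with a mean of at least 1 CPM (predicted genes, pseudogenes, Y chromosome genes and immunoglobulin or T cell receptor segments left out), the 2 most abundant members of each list, and the 6 genes with the lowest p of the class difference with the same exclusions. Other genes were chosen after their values were seen. The ratio, the groups and all gene lists were chosen with earlier results of these data known. List members that the files do not hold under their symbol were not analysed here.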

Additional observations from a re-analysis of the deposited data

Results flagged for a closer look

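For 20 named genes the change from the low to the high group differed between the classes by the test of the difference itself (edgeR, adjusted p under 0.05). Values are the log2 fold change with minus that without Ddx3y counts. With limma on the variance-stabilised values 1 gene of all those tested passed this test, so these differences depend on the model.

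Among mitosis genes the difference was -0.97 for Cenpf, -0.93 for Kif18b, -1.20 for Pbk, -0.90 for Nuf2 and -1.05 for Top2a, each a smaller rise with Ddx3y counts. With Adgre1 as a covariate they were -0.39, -0.43, -0.43, -0.31 and -0.48, and Top2a still passed (adjusted p = 0.037). Mki67, which chose the groups, also differed less with Ddx3y counts, by a mean of 1.22 against 1.94 on the log2 scale. The smaller rises of these mitosis genes are thus not free of the rule. Among myeloid and matrix genes the difference was -2.28 for Gpnmb, -0.52 for Vcan, -1.52 for S100a8 and -0.65 for Col3a1, and with the covariate 0.10, -0.33, -0.53 and -0.31.

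The difference was 1.52 for Igkc, -0.54 for Inhbb, -5.11 for Cyp11a1, 6.30 for Adam28, 1.88 for Epcam and 2.01 for Cldn3. Without the libraries that stand apart, Igkc was at 0.94, Cyp11a1 at -0.73, Adam28 at 0.45, Epcam at 2.10 and Cldn3 at 1.16. The genes with the lowest p of this test besides Adam28 were Tgm4 at 6.68, Cstdc2 at 5.38, Teddm2 at 3.88, Bhlha15 at 4.21 and Lypd8 at 5.63. Without those libraries they were at 1.83, 0.37, 0.05, 0.34 and 1.47, and Tgm4 still passed (adjusted p = 0.00962), with DO533 of the high group at 36.2 CPM. Without the other-tissue libraries of the looser rule Tgm4 was at -0.43 (adjusted p = 0.739) and Teddm2 at -0.02 (adjusted p = 0.993).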

How the results depend on the processing

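No paired analysis was possible because all libraries form 1 group in the labels and no number pairs them. With over 50 libraries a group, none was left out alone, and the libraries that stand apart were left out together, an alternative chosen after seeing the data. Shares below are percent of genes tested. The 18.4% called without Ddx3y counts became 21.6% where a gene's mean had to reach 10 CPM and fewer genes were tested, 27.97% with Adgre1 as a covariate and 32.5% with libraries ranked by the mitosis list over the macrophage list (the list ratio). The 15.2% called with Ddx3y counts became 10.04% with limma on the variance-stabilised values, 17.7% with at least 10 CPM, 7.10% in the outer 10% of libraries, 25.05% with the ratio as a continuous covariate, 40.6% with the list ratio, 28.6% with Adgre1 and 23.2% with the macrophage list as a covariate, and 9.96% without other-tissue libraries. The 5.71% called alike in both became 7.05% with at least 10 CPM, 8.84% with wider groups (76 and 81 libraries each), 1.62% in the outer 10%, 10.49% with the continuous ratio, 3.02% with 2 CPM added in the ratio, 14.69% with the list ratio and 15.75% with Adgre1 as a covariate. The 3.29% whose change differed between the classes became 2.19% with DESeq2, 0.00544% with limma, 0.976% with at least 10 CPM, 7.26% with the continuous ratio, 5.19% with 2 CPM added in the ratio, 23.9% with the list ratio, 1.26% with Adgre1, 0.936% with the macrophage list, 0.381% with blocks of mouse and library number, 0.245% without other-tissue libraries, 0.979% without the libraries that stand apart and 0.969% with counts capped at the 99th percentile. The rise of the CT010467.1 share was 0.447 percentage points in the outer 10% (adjusted p = 0.282). For the 120 named genes 7019 other values were computed, of which 89.5% kept their direction and side of the threshold, 6.82% lost a call, 2.09% gained one and 1.60% changed sign where either value was called. Where no value shows the cause, the cause was not tested.

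The values that changed sign follow. With the list ratio, the log2 change without Ddx3y counts was 0.063 for BB365896, 0.12 for Gpx3, 0.15 for Fam13a, -0.017 for Pcna, -0.27 for Ccnd2, -0.77 for Lyz2, -0.46 for Mrc1, -1.37 for Gpnmb, -0.36 for Ace, -0.45 for Il2ra, -1.08 for Ighm, -0.99 for Cd22, -0.44 for Hba-a2, -0.29 for Hbb-bs, -0.16 for Fn1, -0.14 for Ptprb, -0.028 for Cdh5, -0.19 for Plvap, -0.089 for Mcam, -0.19 for Cldn15, 0.74 for Fasn, -0.27 for Npr3, 1.17 for Ucp1, 1.21 for Cidea, 0.52 for Atp5b, 0.51 for Atp5a1, -0.55 for Mest, -0.25 for Timp1, -1.56 for Itgax, -1.77 for Mmp12, -0.14 for Slc4a1, -0.10 for Apln, 0.046 for Cyp2e1, -0.049 for Tuba1a, -0.38 for Lep. With the list ratio, the log2 change with Ddx3y counts was 1.57 for Atp2a1, 0.16 for Eif4ebp3, 0.25 for Tnni2, 0.45 for Cfd, 0.85 for BB365896, 0.47 for Ces1f, 0.62 for Fcamr, 0.22 for Agt, 0.36 for Fam13a, 0.34 for Slc43a1, -0.060 for Rrm1, -0.020 for Top2a, 0.0010 for Btg1, -0.26 for Vcan, -1.01 for S100a8, 0.0074 for Zbtb46, -0.62 for Trac, -0.18 for Ighm, -0.59 for Cd22, -0.43 for Fn1, -0.062 for Sparc, -0.54 for Col3a1, -0.24 for Plvap, -0.25 for Mbp, 0.65 for Car3, 0.21 for Fabp4, 0.20 for Atp5b, 0.16 for Atp5a1, 0.70 for Acta1, -0.64 for Col1a1, -0.15 for Uhrf1, -0.23 for Clspn, 0.68 for Cyp2e1. With the list ratio, the log2 change for the difference between the classes was 0.86 for Fcamr, -0.21 for Rrm1, 0.32 for Ptprb, 0.20 for Cdh5, 0.35 for Mcam, 0.23 for Cldn15, -1.93 for Ucp1, -0.35 for Atp5a1, 1.00 for Acta1. Without other-tissue libraries, the log2 change without Ddx3y counts was -0.089 for Cyp11a1, -0.00045 for Inha. Without other-tissue libraries, the log2 change with Ddx3y counts was -0.24 for Col6a4, -0.74 for Mael, -2.37 for Ckm, -0.22 for Tgm4, -0.23 for Teddm2, -0.16 for Inha. Without other-tissue libraries, the log2 change for the difference between the classes was -0.43 for Tgm4, -0.017 for Teddm2. With the macrophage list as a covariate, the log2 change without Ddx3y counts was -0.12 for Gpnmb. With the macrophage list as a covariate, the log2 change with Ddx3y counts was 0.14 for Gpnmb, 1.21 for Timp1, 0.46 for Itgax. With the macrophage list as a covariate, the log2 change for the difference between the classes was 0.22 for Gpnmb, 0.27 for Timp1. With Adgre1 as a covariate, the log2 change with Ddx3y counts was 0.40 for Gpnmb, 1.35 for Timp1, 0.77 for Itgax, 0.76 for Mmp12. With Adgre1 as a covariate, the log2 change for the difference between the classes was 0.10 for Gpnmb, 0.11 for Timp1. Without the libraries that stand apart, the log2 change with Ddx3y counts was -0.17 for Col6a4, -0.61 for Cyp11a1, -0.11 for Mael, -0.19 for Teddm2, -0.12 for Inha. In the outer 10%, the log2 change with Ddx3y counts was -0.25 for Col6a4, 0.59 for Atp2a1. With limma, the log2 change with Ddx3y counts was 0.036 for Atp2a1, -0.0098 for Mael. With capped counts, the log2 change with Ddx3y counts was -0.20 for Mael, -0.041 for Teddm2. With 2 CPM added in the ratio, the log2 change with Ddx3y counts was 0.23 for Atp2a1. With the blocks, the log2 change with Ddx3y counts was -0.0014 for Mael.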
